A study of Sus scrofa with 6 samples.

Results

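The genes described here form a set named for the contractile apparatus of smooth muscle: ACTA2, ACTG2, CNN1, TAGLN, TPM2, CALD1 and MYL4. They were taken by name, with every probe set that carries that single symbol in the platform's gene annotation, and the names had been chosen with the differences between the lines on these same arrays in view. All 7 genes were measured, by 12 of the 23999 probe sets tested, and they stand among 6765 named genes in all. Because the line difference chose them, their own differences are given as descriptions without a test. Expression was measured on Affymetrix porcine arrays in OBGF400, a pig cell line that the labels derive from olfactory bulb neuroblasts, and in PK15, an established pig kidney line labelled as non-neuronal and epithelial, which served as a somatic background. Each line was untreated and had 3 arrays. Each array held a pool of RNA, and the pools together held 9 independent cultures of the line. Both media held 10% bovine calf serum. OBGF400 grew in DMEM/F12 and PK15 in MEM with amphotericin B added, so line and medium cannot be told apart. Each line is a single line, so p-values measure the spread between pools and not between animals.

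Smooth muscle shortens when myosin filaments pull on thin filaments of actin. Tropomyosin lies along the thin filament, and calponin and caldesmon bind the filament and restrain the myosin ATPase. Contraction starts when calcium and calmodulin set off phosphorylation of the myosin light chain. ACTA2, TAGLN and CNN1 are widely used as markers of the differentiated contractile state, and ACTA2 and TAGLN are also switched on in myofibroblasts and some cultured mesenchymal cells. Many of these genes are controlled by serum response factor with its coactivator myocardin or the related MRTF proteins.

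Signals are on the log2 scale as deposited, and every difference is OBGF400 minus PK15 on that scale. The table has a common lower limit of 2.13, called the floor, at which between 25.8% and 27.3% of the probe sets of each array lay. A difference against a level near the floor depends on where that limit was set, so the difference after 32 was added to the linear values is given beside it. Where a line sits at the floor, its pools show almost no spread, as for GATA6 in OBGF400 and ITGA8 in PK15. An adjusted p there rests on the spread of the other line and on the spread pooled across all genes. The lowest Pearson correlation across probe sets was 0.997 among OBGF400 arrays and 0.996 among PK15 arrays, and the highest between the lines was 0.865. The median difference over all genes was -0.0018, and it became 0.82 when arrays were scaled to their hybridization controls and -0.77 when they were scaled to their poly-A controls. Of all called genes, 39.4% were higher in OBGF400 on the deposited scale, 78.1% on the hybridization control scale and 13.8% on the poly-A control scale. Small differences therefore depend on the scaling.

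Both smooth muscle actins were bright in OBGF400 and close to the floor in PK15. ACTA2, the actin of vascular smooth muscle, had signals of 15.05, 15.04 and 15.17 in OBGF400, against 3.30, 4.52 and 2.57 in PK15. The PK15 pools spread widely for this gene, with pool 2 the highest, but no PK15 pool came near an OBGF400 pool. The means were 15.09 ± 0.07 in OBGF400, against 3.47 ± 0.99 in PK15 (SD, n = 3), which placed the lines apart by 11.62 that became 9.62 with 32 added.

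ACTG2, the actin of visceral smooth muscle, was read by a pair of probe sets. The brighter one gave 15.75, 15.61 and 15.63 in OBGF400, against 2.90, 3.49 and 2.90 in PK15. The dimmer one gave 10.95, 10.79 and 10.95 in OBGF400, against 2.13, 2.46 and 2.48 in PK15. Both separated the lines without overlap, by 12.56 and 8.54, which became 10.32 and 5.70 with 32 added. As with ACTA2, pool 2 was the highest PK15 pool on the brighter probe set.

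Other actins did not share this pattern on the probe sets that stood for them. ACTC1, the cardiac actin, lay at the floor on all 6 arrays. The cytoplasmic actins ACTB and ACTG1 differed by 0.01 and 0.05 (limma, adjusted p = 0.882 and 0.211), and both took the sign of the scaling, at 0.83 and 0.87 on the hybridization control scale and -0.76 and -0.72 on the poly-A control scale. A dimmer ACTB probe set was called higher, by 0.68 (limma over probe sets, adjusted p = 0.00603), so the ACTB probe sets disagree, while none of the 6 ACTG1 probe sets was called. Actin coding sequences are closely related, and whether a probe set of one actin also reads another was not tested.

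CNN1, the calponin typical of smooth muscle, followed the actins. It gave 13.23, 12.92 and 12.84 in OBGF400, against 2.61, 2.17 and 2.15 in PK15. Every PK15 pool lay near the floor, and the difference of 10.68 became 7.79 with 32 added.

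TAGLN, which encodes the actin-bundling protein transgelin (SM22), was present in both lines. Its signals were 14.67, 14.73 and 14.72 in OBGF400, against 9.02, 9.81 and 9.36 in PK15. The OBGF400 pools had an SD of 0.03 and the PK15 pools an SD of 0.39, and the lines did not overlap. Since both levels lie well above the floor, the difference of 5.31, or 39.7-fold on the deposited scale, hardly moved with 32 added (5.24).

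TPM2, beta-tropomyosin, had the most probe sets of the 7 genes, with 4. The brightest gave 15.59, 15.43 and 15.44 in OBGF400, against 7.66, 7.46 and 7.38 in PK15. The next brightest gave 15.29, 15.19 and 15.32 in OBGF400, against 7.57, 6.87 and 7.10 in PK15. These 2 probe sets placed the lines 7.99 and 8.08 apart, with a PK15 level above the floor on both, and the values with 32 added were 7.75 and 7.79.

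The other TPM2 probe sets were dimmer in OBGF400 and near the floor in PK15. The brighter of them gave 9.31, 9.73 and 9.47 in OBGF400, against 2.45, 2.13 and 2.13 in PK15. The dimmest gave 6.43, 6.82 and 6.98 in OBGF400, against 2.18 on each PK15 array. Their differences of 7.27 and 4.57 became 4.37 and 1.93 with 32 added, and the identical PK15 values are no measure of precision.

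CALD1, caldesmon, which is also made as a shorter form in non-muscle cells, was bright in both lines. The probe set with the higher mean over all arrays gave 14.95, 14.83 and 14.99 in OBGF400, against 12.02, 12.21 and 12.13 in PK15. The other probe set gave 15.21, 15.04 and 15.09 in OBGF400, against 11.42, 11.66 and 11.57 in PK15. The probe sets differed by 2.80 and 3.56, or 6.97-fold and 11.8-fold, and adding 32 left them at 2.79 and 3.55. As deposited, both lay below every other positive difference among the 12 probe sets. Which caldesmon form each probe set reads was not analysed here.

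MYL4 went the other way and at a low level. It encodes an essential myosin light chain known from atrial and embryonic striated muscle rather than from smooth muscle, so the common name of the set fits it least. Its signals were 3.30, 4.24 and 3.82 in OBGF400, against 4.53, 5.02 and 4.95 in PK15. The pools did not overlap, but the highest OBGF400 pool and the lowest PK15 pool lay close together. The difference of -1.05 became -0.39 with 32 added and -0.22 on the hybridization control scale, under which the pools overlapped, and it was -1.82 on the poly-A control scale. Leaving out 1 array at a time gave values from -1.28 to -0.80.

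**Figure D1:**
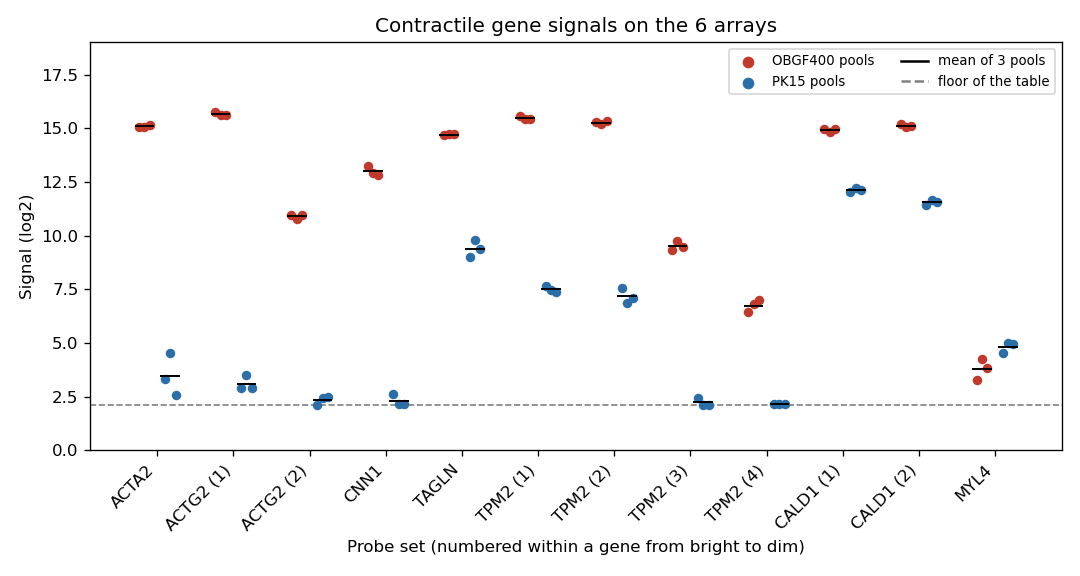
Log2 signal (vertical axis) of the 12 probe sets of the 7 genes on each array, with OBGF400 pools on the left of each pair and PK15 pools on the right; bars are means of 3 pools and the dashed line is the floor of 2.13. All probe sets but that of MYL4 lie higher in OBGF400, and TAGLN, CALD1 and the brighter TPM2 probe sets stand clear of the floor in PK15 as well.

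Counted by probe set, 11 of 12 had every OBGF400 array above every PK15 array and 1, that of MYL4, had every OBGF400 array below. Over all probe sets tested, 24.4% lay entirely above and 26.1% entirely below (50.5% either way, with 41.9% called at an adjusted p under 0.05 by limma), which is given for scale only, since the members were picked on this contrast. The 11 stayed above under quantile normalization, median centring, both control scalings and 32 added. Counted by gene, with the probe set of highest mean, 6 of 7 were entirely above and 1 entirely below, where 26.8% and 40.1% of all genes were. The median difference over the 7 genes was 7.99 (7.75 with 32 added).

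**Figure D2:**
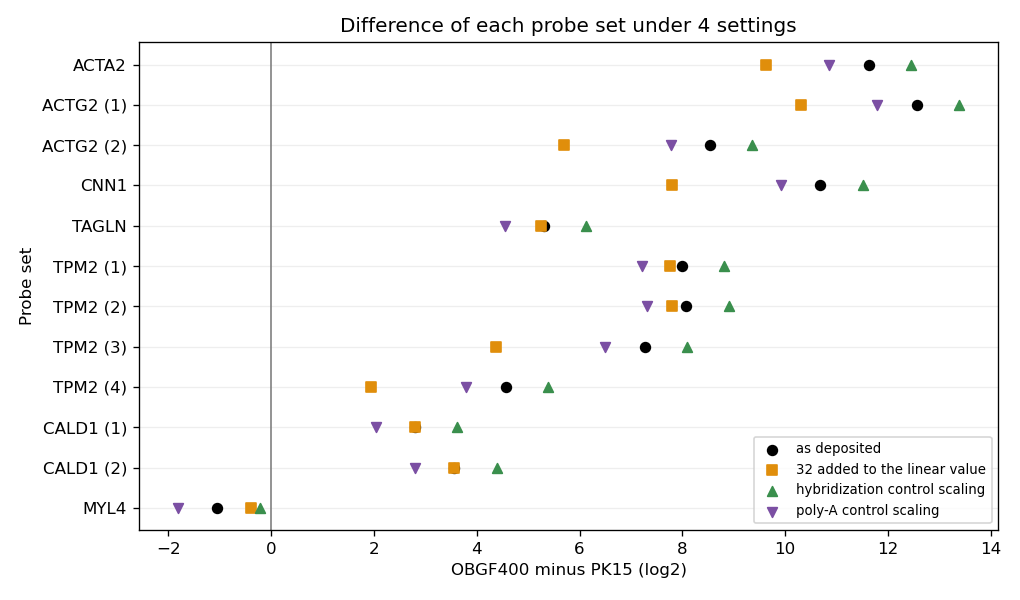
Difference of each probe set, OBGF400 minus PK15 (horizontal axis, log2), as deposited and under 3 other settings named in the legend. Control scalings shift all probe sets by a constant, while adding 32 shortens the differences that rest on a PK15 level near the floor and leaves TAGLN and CALD1 almost in place.

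Probe sets of the same gene gave the same direction in each of the 3 genes that had several. The CALD1 pair lay 0.76 apart, and the wide separations were those of ACTG2, at 4.02, and TPM2, at 3.51. With 32 added these separations were 0.76, 4.61 and 5.86. In both ACTG2 and TPM2 the smallest difference came from the probe set with the lowest OBGF400 signal, whose PK15 level lay near the floor. The other 4 genes rested on 1 probe set each, so no agreement between probe sets can be given for ACTA2, CNN1, TAGLN and MYL4.

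The median SD over the 12 probe sets was 0.09 in OBGF400 and 0.23 in PK15, where values near the floor are included. TAGLN, at a PK15 mean of 9.39, had an SD of 0.39. The dimmest TPM2 probe set, near the floor, had an SD of 0 from identical values, so the 2 cannot be compared for spread. In OBGF400, pool 2 gave the lowest signal on 7 of the 11 probe sets with a mean above 4, where it was lowest on 32.7% of all probe sets of that level. In PK15, only 6 probe sets had a mean above 4, and pool 1 was lowest on 4 of them, against 39.0% of all probe sets of that level. Its deviations from the line mean were -0.38 for TAGLN, -0.10 and -0.13 for CALD1 and -0.31 for MYL4. The brighter TPM2 probe sets went against this, with pool 1 above their PK15 mean by 0.16 and 0.39. Members share their RNA pool, so these counts describe the arrays only.

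**Figure D3:**
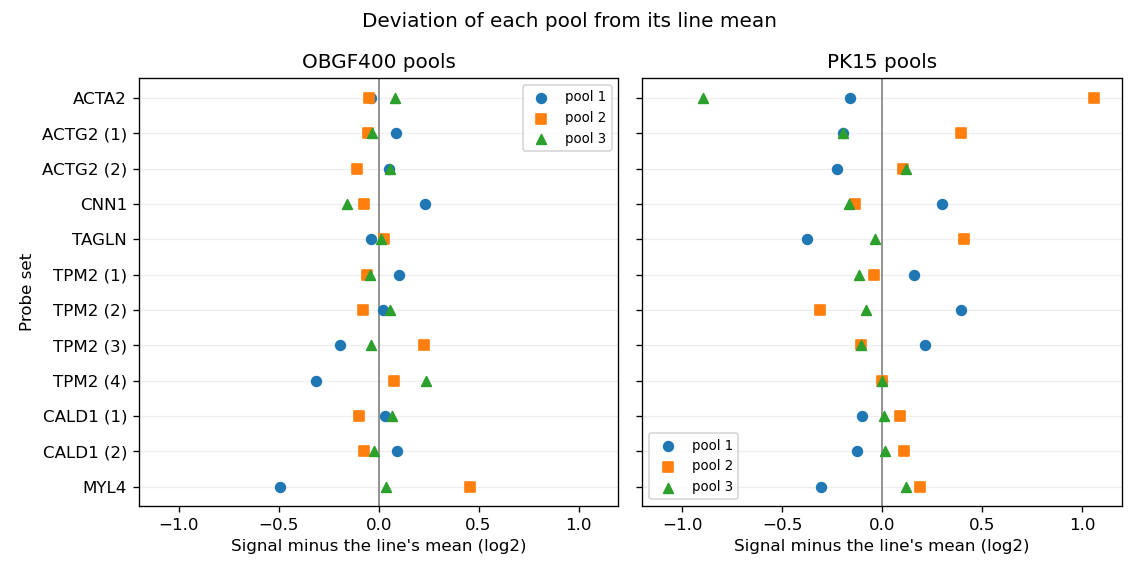
Signal of each pool minus the mean of its line (horizontal axis, log2) for the 12 probe sets, OBGF400 on the left and PK15 on the right. OBGF400 pools lie within 0.24 of the line mean for all but the dimmest TPM2 probe set and MYL4, and the widest spread is that of ACTA2 in PK15, where pool 2 lies at 1.06 and pool 3 at -0.90.

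Of 105 further genes of contraction and its control that were listed by role, 64 had a named probe set. Of these, 34 (53.1%) were higher in OBGF400, 10 (15.6%) lower and 20 not called, with 12 of the uncalled genes at the floor in both lines (limma, adjusted p under 0.05). Among all genes 23.9% were called higher and 36.8% lower, or 60.8% in either direction. The median difference of the listed genes was 0.71 (0.38 with 32 added). Scaling gave 55 higher and 4 lower with the hybridization controls, and 25 higher and 31 lower with the poly-A controls. Of all 6765 genes, 4487 were called higher and 1259 lower with the hybridization controls. With the poly-A controls, 825 of all genes were called higher and 5137 lower. The counts by role on these scales, given below, are to be read beside these. In bulk RNA, fewer cells of a type and less RNA per cell cannot be told apart.

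Of 17 genes that anchor the thin filaments or belong to the cytoskeleton around them, 14 were higher and 1 lower, against 16 and 0 on the hybridization control scale and 14 and 3 on the poly-A control scale. ITGA8, an integrin subunit of smooth muscle and mesenchyme, averaged 12.43 ± 0.08 in OBGF400 and lay at the floor in PK15 (SD, n = 3), which placed the lines apart by 10.29 (7.25 with 32 added, adjusted p = 1.06e-07). All 3 ITGA8 probe sets were called higher. CSRP2, a LIM protein of smooth muscle, was higher by 8.91 (6.27 with 32 added, adjusted p = 2.15e-06). SGCD, delta-sarcoglycan of the muscle membrane complex, was higher by 8.79 (5.97 with 32 added, adjusted p = 2.19e-08). SMTN, smoothelin, was at 10.26 ± 0.17 in OBGF400, against 6.45 ± 0.26 in PK15 (SD, n = 3, adjusted p = 6.99e-05), with 2 of its 3 probe sets called higher. Desmin (DES), the muscle intermediate filament, gave the same signal of 2.74 on all 6 arrays, and its other probe set lay at the floor on all of them. Such identical values are no measure of its level. The unconventional myosin MYO1C was the lower member (-0.59, adjusted p = 0.0331), with a difference of 0.23 on the hybridization control scale. Its call was lost without any of OBGF400 pool 1 (-0.61), pool 2 (-0.61) or pool 3 (-0.56) or PK15 pool 2 (-0.62).

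Of 7 measured myosin chains, 4 were higher and none lower, against 7 and 0 on the hybridization control scale and 3 and 3 on the poly-A control scale. The regulatory light chain of smooth muscle, MYL9, was at 11.83 ± 0.17 in OBGF400, against 7.44 ± 0.61 in PK15 (SD, n = 3), which placed the lines apart by 4.39 (limma, adjusted p = 0.000405). Its sign was opposite to that of MYL4, which was low in both lines, was not tested and overlapped on the hybridization control scale. The non-muscle heavy chains MYH10 and MYH9 were higher by 4.09 (2.19 with 32 added, adjusted p = 0.00128) and 2.25 (adjusted p = 8.65e-05), each on 1 of 2 probe sets. The striated light chains MYL1 and MYL2 lay at the floor on all arrays. MYH11, the smooth muscle heavy chain, has no probe set under that single symbol in the annotation used here and was not analysed here, and the same holds for leiomodin 1 (LMOD1).

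Of 6 actins and tropomyosins, 2 were higher and 1 lower, against 5 and 0 on the hybridization control scale and 2 and 4 on the poly-A control scale. The tropomyosins went both ways. TPM4 was at 15.38 ± 0.03 in OBGF400, against 12.78 ± 0.15 in PK15 (SD, n = 3, adjusted p = 2.58e-05), and TPM1 was higher by 1.59 (adjusted p = 4.11e-05), with all of their probe sets called higher. TPM3 was lower by 1.11 as deposited (-1.11, adjusted p = 0.000193) and was not called on the hybridization control scale (-0.29), with 2 of its 3 probe sets called lower. Relatives of CNN1 and TAGLN differed little beside those genes. CNN2 was higher (1.06, adjusted p = 0.000157), though not called on the poly-A control scale (0.29). CNN3 (-0.28, adjusted p = 0.0392) and TAGLN2 (-0.78, adjusted p = 1.38e-05) were lower as deposited, and both changed sign on the hybridization control scale, to 0.54 and 0.04. CNN3 also lost its call without OBGF400 pool 2 (-0.31) or PK15 pool 1 (-0.25), pool 2 (-0.31) or pool 3 (-0.28). Of the 4 listed relatives, 1 was called higher and 2 lower, against 3 and 0 on the hybridization control scale and 0 and 3 on the poly-A control scale.

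Of 10 genes that control contraction, 5 were higher and 2 lower, against 8 and 1 on the hybridization control scale and 1 and 6 on the poly-A control scale. MYLK, the kinase that phosphorylates the light chain, was near the floor in both lines, at 3.34 ± 0.27 in OBGF400, against 2.46 ± 0.28 in PK15 (SD, n = 3), which placed the lines apart by 0.88 (0.17 with 32 added, adjusted p = 0.0192). The MYLK call was lost without OBGF400 pool 1 (0.84) or pool 2 (0.78) and without PK15 pool 1 (0.80) or pool 2 (0.80), and on the poly-A control scale (0.11). The myosin phosphatase subunit PPP1R12A was higher (1.18, adjusted p = 0.0019), though not called on the poly-A control scale (0.41). As deposited, all 3 of its probe sets were called higher, by 1.18 to 2.96, and the smallest difference is that of the brightest. Calmodulin 2 (CALM2) was lower (-0.996, adjusted p = 7.16e-05), though not called on the hybridization control scale (-0.17). CALM3 was lower on its brightest probe set (-1.22) but had 4 probe sets called higher and 2 lower, so it has no settled direction.

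Of 6 genes of the serum response factor axis, 3 were higher and 2 lower, against 4 and 2 on the hybridization control scale and 2 and 3 on the poly-A control scale. Myocardin (MYOCD) lay at the floor in both lines, and serum response factor (SRF) itself has no probe set under that symbol here and was not analysed here. FHL1 (1.82, adjusted p = 0.00015) and FHL2 (0.86, adjusted p = 0.000177), LIM-domain cofactors, and the muscle transcription factor MEF2A (1.79, adjusted p = 0.000463) were higher, with FHL2 not called on the poly-A control scale (0.10). GATA6, a factor of vascular smooth muscle and of several endodermal tissues, lay at the floor in OBGF400, against 7.16 ± 0.28 in PK15 (SD, n = 3), which placed the lines apart by -5.03 (-2.27 with 32 added, adjusted p = 2.31e-05). KLF4, which represses contractile genes in vascular smooth muscle, was at 6.47 ± 0.12 in OBGF400, against 9.16 ± 0.16 in PK15 (SD, n = 3), which placed the lines apart by -2.69 (adjusted p = 5.64e-05).

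Of 14 calcium handling and membrane genes, 5 were higher and 2 lower, with 5 at the floor in both lines, against 12 and 1 on the hybridization control scale and 3 and 9 on the poly-A control scale. KCNMB1, the smooth muscle subunit of the large-conductance potassium channel, was at 7.63 ± 0.07 in OBGF400, against 2.21 ± 0.03 in PK15 (SD, n = 3), which placed the lines apart by 5.41 (2.65 with 32 added, adjusted p = 4.67e-07), on 1 of its 2 probe sets. Its pore-forming partner KCNMA1 was lower at low signals (-1.19, -0.36 with 32 added, adjusted p = 0.0136), and its other probe set lay at the floor on all arrays. The KCNMA1 call was lost without PK15 pool 2 (-1.14) and on the hybridization control scale (-0.37). The endothelin receptor EDNRA was higher by 5.37 (2.70 with 32 added, adjusted p = 8.23e-07) and the plasma membrane calcium pump ATP2B1 by 1.78 (adjusted p = 0.00212), while the inositol trisphosphate receptor ITPR3 was lower (-1.30, adjusted p = 0.00226), on 1 of its 2 probe sets.

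**Figure D4:**
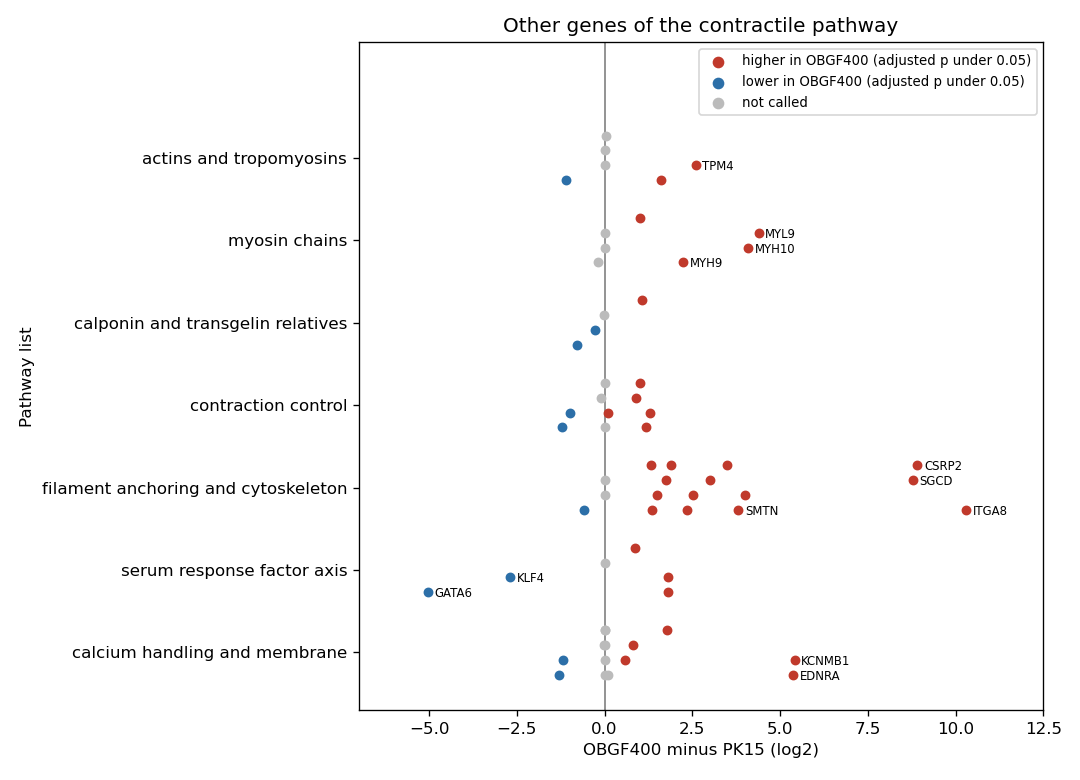
Difference of each of the 64 further genes (horizontal axis, OBGF400 minus PK15, log2) by role, 1 point per gene at its brightest probe set, coloured by the call as deposited. The largest rises are those of ITGA8, CSRP2 and SGCD among the anchoring genes, and GATA6 and KLF4 lie on the lower side.

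Markers of other cell types moved between the same lines, and their part in the differences above was not tested. Their counts are to be read beside the 23.9% of all genes called higher and the 36.8% called lower. Of 12 fibroblast and mesenchymal markers, 9 were higher in OBGF400 and 1 lower, with POSTN higher by 10.04 (7.09 with 32 added) and LUM by 9.93 (6.89 with 32 added). The other POSTN probe set was near the floor in both lines and differed by 0.014. The summed linear signal of the 12 markers ran from 94580.4 to 97032.8 in OBGF400 and from 75192.9 to 78573 in PK15. Both lines had bright vimentin, fibronectin and S100A4, and vimentin counted among the 9 higher markers with a difference of only 0.11. The lower marker was S100A4, at 12.62 in OBGF400 against 14.61 in PK15. COL3A1 was near the floor in both lines, at 2.65 in OBGF400 and 2.58 in PK15. Of 6 pericyte markers, PDGFRB (on 1 of 2 probe sets) and ANGPT1 were higher, by 9.88 (7.65 with 32 added) and 4.99 (2.42 with 32 added), and RGS5, KCNJ8 and HIGD1B lay at the floor in both lines. The pericyte sum ran from 7478.64 to 8749.21 in OBGF400 and from 30.9 to 32.6 in PK15. PDGFRB alone made up most of the pericyte sum in OBGF400. Of 23 striated muscle markers, 14 lay at the floor in both lines, among them MYOD1, MYF5, CKM, NEB and TNNT2. TNNT1, troponin T of slow muscle, was higher (10.22 ± 0.15 in OBGF400 and 6.81 ± 0.29 in PK15, SD, n = 3, limma adjusted p = 0.000114) and TNNI2 lower (-2.15, -0.68 with 32 added). The striated sum ran from 1252.28 to 1507.09 in OBGF400 and from 269.6 to 303.4 in PK15. TNNT1 alone made up most of the striated sum in OBGF400.

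The labels of the lines were also set against markers. Of 10 neuroblast and neuron markers measured, UCHL1, NCAM1 and MAP2 (30%) were higher in OBGF400, against 23.9% of all genes. STMN1 was lower, and 6 markers lay at the floor in both lines, GAP43, STMN2 and SNAP25 among them. UCHL1 was higher by 10.21 (7.16 with 32 added) and NCAM1 by 6.20 (3.70 with 32 added). The neuronal sum ran from 7139.04 to 7727.63 in OBGF400 and from 3458.35 to 3968.27 in PK15. UCHL1 made up most of the neuronal sum in OBGF400, and STMN1 most of it in PK15. DCX, TUBB3, NES, SOX2 and PAX6 were not analysed here. All 9 epithelial markers were lower in OBGF400, among them PERP (-12.18, or -9.15 with 32 added) and KRT8 (-12.14, or -9.51 with 32 added), and their sum ran from 48.1 to 52.0 in OBGF400 and from 107446 to 110213 in PK15. The control scalings shift every floor-level gene by the same amount. With hybridization control scaling the counts higher and lower were 11 and 1 for fibroblast, 6 and 0 for pericyte, 22 and 1 for striated, 9 and 1 for neuronal and 0 and 9 for epithelial markers. With poly-A control scaling they were 8 and 4, 2 and 4, 1 and 21, 3 and 7 and 0 and 9 in the same order.

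Leaving out the 7 contractile genes themselves, the genes whose profile lay nearest to that of ACTA2 were CDH11, COL15A1, MMP2, C1S and THBS2. Nearness was the root mean square distance over the 6 arrays between log2 values centred on each gene's own mean, and these genes lay at 0.58, 0.60, 0.62, 0.72 and 0.73. All of them had OBGF400 means between 12.88 and 13.75 and PK15 means between 2.13 and 2.25. Of the contractile genes, ACTG2 lay at 0.62, with 3 genes closer to ACTA2, and CNN1 at 0.78, while TPM2 (1.91), TAGLN (3.19) and CALD1 (4.44) lay farther away and MYL4 farthest (6.36). With 2 lines, this distance reflects mainly the size of the line difference.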

How the data were processed

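The values were log2 signals as deposited, 1 for each probe set on each array. Per the submitters' processing notes the authors used the package affy; how signals were background corrected, summarised and normalized is not given in the sources used here. All 124 control probe sets were left out. Symbols came from the platform annotation, in which 10069 tested probe sets had 1 symbol, 198 several and 13732 none; by Entrez number, 9961 matched the RefSeq table, which changed 0 symbols. Where a gene had several probe sets, the brightest on average over the 6 arrays stood for it. Lines were compared with limma 3.58.1 (lmFit, eBayes, two-sided, Benjamini-Hochberg) in R 4.3.3, over all probe sets and over all genes, with an adjusted p threshold of 0.05, after a test on simulated data. With 3 arrays a side the smallest exact permutation p of 1 gene is 0.1. A gene counts as at the floor in a line if all 3 arrays read at most 0.1 above it. Some probe sets, as that of DES, gave identical values above this limit on several arrays and do not count as at the floor. The number of arrays limits the precision. Named genes were all members, fixed pathway genes, the 3 largest called rises and falls of each role list, the 2 largest called differences of each marker list, genes needed to check a label, and the 5 nearest to ACTA2, except that some of the largest rises of the contraction control list are not reported here. The members and all lists were chosen with earlier results of these data known. Alternatives were quantile normalization, median centring, control scalings, a filter at the 25th percentile, 32 added, trended and robust variance, averaging a gene's probe sets, a threshold of 0.01, a replicate block and leaving out each array. Figures were drawn in Python 3.11.15 with matplotlib 3.10.9.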

Additional observations from a re-analysis of the deposited data

How the results depend on the processing

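The 6 genes higher in OBGF400 stayed higher and MYL4 stayed lower under every alternative run. The median difference over the 7 members became 8.81 on the hybridization control scale, 7.22 on the poly-A control scale and 6.97 with the mean of all probe sets of a gene, where TPM2 takes its dim probe sets in, and leaving out 1 array gave 7.93 to 8.06. Pathway genes called higher numbered 55 on the hybridization control scale, and those called lower numbered 4 with it and 31 on the poly-A control scale. Leaving out 1 array gave 31 to 33 pathway genes higher and 7 to 9 lower, 3735 to 3979 genes and 8898 to 9483 probe sets called, against 34, 10, 4112 and 10060 with all arrays. Probe sets called numbered 19464 with median centring, 21558 on the hybridization control scale and 21678 on the poly-A control scale, which move floor-level probe sets by the same amount. Signs changed for ACTB with median centring (-0.070), the poly-A control scale (-0.76) and without PK15 pool 2 (-0.017, where leaving out 1 array gave -0.017 to 0.023), for ACTG1 with median centring (-0.032) and the poly-A control scale (-0.72), and on the hybridization control scale for TAGLN2 (0.041), CNN3 (0.54) and MYO1C (0.23). CALM3 changed to 2.04 with the mean of its probe sets, which disagree in sign. Other causes were not tested. Lines share replicate numbers, but same-numbered pools did not deviate together (r = 0.05, -0.0065 and 0.02 over 5014 genes). With the replicate block 31 pathway genes were higher and 8 lower, and 3782 genes and 8661 probe sets were called; contraction control genes called higher numbered 3 in place of 5, and striated muscle markers 2 in place of 1. Of the named genes, MYLK, CNN3 and MYO1C lost their calls with it (adjusted p = 0.104, 0.128 and 0.0983), and these genes and KCNMA1 were among those not called at a threshold of 0.01.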

Other observations

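The array carries control probe sets along the actin and GAPDH transcripts, which entered no comparison above. For actin, the difference between OBGF400 and PK15 was 0.72 at the 5′ end, 0.19 in the middle and 0.05 at the 3′ end. For GAPDH, it was -0.43 at the 5′ end, -0.19 in the middle and -0.37 at the 3′ end. All 6 of these probe sets separated the pools of the lines without overlap, as did 50.5% of all probe sets tested.

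Vinculin (VCL), which links actin filaments to adhesion sites, was singled out after its values were seen, because its probe sets differed widely. The brightest gave 14.30 ± 0.03 in OBGF400, against 10.81 ± 0.08 in PK15 (SD, n = 3), which placed the lines apart by 3.49. The other probe sets differed by 8.42 (6.03 with 32 added) and -0.24 (-0.052 with 32 added). The former rested on a PK15 level of 2.89. The latter was low in both lines, at 2.56 in OBGF400 and 2.80 in PK15, with overlapping pools, so it gives no direction.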
